A study of Mus musculus with 2 samples.

Results

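Gene-near intergenic open sites are stretches of DNase I-accessible chromatin that lie between annotated genes but not far from one. DNase-seq reads where the nuclease DNase I cuts chromatin in nuclei, and a peak marks a stretch cut more often than its surroundings. A site was kept when a peak of replicate 1 overlapped a peak of replicate 2 by at least 1 base, in the longer of the peak lists that the authors deposited for each library. The replicate 1 peak also had to overlap no gene body of any type in GENCODE vM21 (mouse build mm10). It had to lie more than 1000 bases from any transcript start and at most 50000 bases from the nearest transcript start of a protein-coding gene. Of 30382 sites shared by both libraries, 4179 (13.8%) met this rule. Of the other shared sites, 1123 were far intergenic (more than 50000 bases from such a start), 4480 were distal intronic, 1090 overlapped exons away from starts, 711 lay in non-coding genes and 18799 lay near a transcript start.

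The libraries came from liver of mouse embryos at day 13.5. The strain is given as C57BL/6N,129, and the mice carried an LCR deletion together with a HET globin mutation. How far the deletion reaches, what the mutation is and which genotype each embryo had are not given in the sources read, and sex was not collected. The libraries are biological replicates 1 and 2 of 1 group. Their biosamples differ but share a donor identifier, and there was no control group. No comparison of conditions and no test over samples was therefore possible. Spread between the libraries measures only the difference between these 2 samples, which may be technical. In tissue of mixed cells, a lower value from fewer cells of a type cannot be told apart from less open chromatin per cell. The longer lists held 47198 and 36523 peaks in replicates 1 and 2. Of 22 erythroid regulator genes, 21 had a promoter peak in both libraries, as did 32 of 34 erythroid membrane and heme genes. All 12 housekeeping genes and all 10 cell growth and cycle genes had one too, so a high share was not particular to red cell genes. Of the beta-globin and the alpha-globin genes 2 of 5 each did. The counts were 8 of 15 blood stem and progenitor genes, 6 of 12 neuronal genes, 3 of 10 megakaryocyte genes, 2 of 12 lymphoid genes and 0 of 8 mast cell genes. They were 5 of 20 hepatoblast genes, 3 of 14 mature hepatocyte genes, 1 of 10 endothelial genes and 3 of 11 stellate and mesenchymal genes. The last were 2 of 16 macrophage and myeloid genes and 3 of 10 muscle genes, against 54.1% of all protein-coding genes.

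Open chromatin between genes holds enhancers, insulators, promoters that an annotation misses, and small RNA genes. Red cells form in large numbers in the fetal liver, and enhancers of red cell precursors are often bound by the factors GATA1, TAL1, KLF1 and NFE2. CTCF binds insulators and the anchors of chromatin loops. Genes of transfer RNA (tRNA) are transcribed by RNA polymerase III from a promoter inside the gene, whose A box and B box are bound by the factor TFIIIC, while the factor TFIIIB binds just upstream. Where a protein sits on open DNA, the nuclease cuts less, and the short protected stretch is called a footprint.

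The sequences below are 150-base windows centred on the replicate 1 peak, from the RefSeq copy of mm10, plus strand, 5′ to 3′. Each is the highest member, with a unique centre and not already shown, whose match to the named motif lay in a footprint of both libraries, and the capitals mark that match. They show what a protected match in these sites looks like. The motifs are a GATA motif (AGATA or TGATA) that follows CTG after 7 or 8 bases, as bound by TAL1 with GATA1, then CTCF, NFE2 (TGCTGANTCA), KLF (CCNCACCC), RUNX (TGTGGTT), ETS (CCGGAAG) and the tRNA B box (GGTTCGANNC). All were searched on both strands, so a match on the minus strand appears reversed.
E-box with GATA, nearest gene Pdzk1ip1, chr4:115095836-115095985: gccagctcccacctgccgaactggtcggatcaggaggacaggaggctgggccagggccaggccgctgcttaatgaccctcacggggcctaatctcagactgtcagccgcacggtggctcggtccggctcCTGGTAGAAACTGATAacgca
CTCF, nearest gene Trpv4, chr5:114667606-114667755: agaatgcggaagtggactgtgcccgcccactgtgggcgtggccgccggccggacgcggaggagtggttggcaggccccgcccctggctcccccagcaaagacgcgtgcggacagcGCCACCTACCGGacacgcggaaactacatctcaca
NFE2, nearest gene Gclc, chr9:77750696-77750845: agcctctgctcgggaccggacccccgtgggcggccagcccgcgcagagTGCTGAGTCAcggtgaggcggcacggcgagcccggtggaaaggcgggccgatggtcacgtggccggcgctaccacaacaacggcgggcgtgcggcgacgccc
KLF, nearest gene Sertad1, chr7:27490856-27491005: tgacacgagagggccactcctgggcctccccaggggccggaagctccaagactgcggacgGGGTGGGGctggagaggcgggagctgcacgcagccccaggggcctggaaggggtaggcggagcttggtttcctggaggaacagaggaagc
RUNX, nearest gene Fth1, chr19:9978526-9978675: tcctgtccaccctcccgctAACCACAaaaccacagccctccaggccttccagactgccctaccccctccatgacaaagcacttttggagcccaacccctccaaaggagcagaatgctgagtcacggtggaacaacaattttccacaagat
ETS, nearest gene Abt1, chr13:23401756-23401905: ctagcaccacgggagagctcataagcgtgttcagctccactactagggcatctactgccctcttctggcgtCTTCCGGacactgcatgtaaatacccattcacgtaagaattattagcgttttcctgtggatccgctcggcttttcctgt
B box, nearest gene Mrpl58, chr11:115413306-115413455: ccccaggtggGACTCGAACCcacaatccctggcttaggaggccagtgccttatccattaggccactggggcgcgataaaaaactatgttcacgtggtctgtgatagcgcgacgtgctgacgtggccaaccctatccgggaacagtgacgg

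The site nearest to Pdzk1ip1 had values of 12.6 and 6.14 in replicates 1 and 2, and lay 36213 bases from the nearest start of Tal1, a master regulator of blood formation. The value is the authors' normalised cleavage signal at the peak. The Trpv4 site, with a CTCF match, had 16.6 and 8.41. The NFE2 match lay 3635 bases upstream of Gclc, which encodes the catalytic subunit of the enzyme that starts glutathione synthesis, at a site with 10.2 and 6.39. The KLF site nearest to Sertad1 had 9.60 and 5.50. The RUNX site lay 1898 bases upstream of Fth1, the ferritin heavy chain gene of iron storage, and had 4.69 and 2.88. That Fth1 site also held an NFE2 match within a footprint of both libraries. The ETS site nearest to Abt1 had 10.4 and 7.32 and also held a CTCF match within a footprint of both libraries. The B box site overlapped a tRNA gene and had 13.1 and 8.35. All 7 were higher in replicate 1, as were 84.9% of all members.

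The members' median value was higher than that of far intergenic and distal intronic sites and lower than that of sites over exons and near starts. Their median value was 1.54 in replicate 1 and 1.15 in replicate 2, a mean of 1.35 ± 0.276 (SD, n = 2). The 5th to 95th percentile spanned 0.616 to 6.27 in replicate 1, while replicate 2 spanned 0.554 to 3.70. Far intergenic sites had medians of 0.973 and 0.776, distal intronic sites 1.36 and 1.03, sites over exons 1.60 and 1.21, sites near starts 2.94 and 2.25, and all shared sites 1.98 and 1.54. The order of these location classes was the same in each library, but replicate 1 of a lower class exceeded replicate 2 of the members in the distal intronic case. Values were whole multiples of 1 step per library. With 1 step read as 1 read, which is an assumption, the reads at a site of median value numbered 125 in replicate 1 and 83 in replicate 2. The 95% Poisson intervals of such a site were 1.28 to 1.84 and 0.916 to 1.43, for counting error only. Median peak widths were 200 and 185 bases.

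The values of the members ranked alike in both libraries, with a Spearman correlation of 0.874 over 4179 sites, given as a description of sites that share their library. For all shared sites it was 0.932. The value was lower in replicate 2 at 84.9% of members, and the median of the log2 ratio (replicate 2 over replicate 1) was -0.43, against -0.45 for all shared sites. Whether the authors' values share a scale across libraries is not stated, so ratios were read only against sites of like height. When all shared sites were cut into 5 groups of equal size by mean log value, the members' median log2 ratio was -0.23 in the lowest group and then -0.39, -0.48, -0.66 and -0.82. All shared sites had -0.13, -0.29, -0.37, -0.55 and -0.94 in the same groups. The members lay below all shared sites in the 4 lower groups and above them in the highest, where only 212 members fell.

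Within each height group the ratio differed with what the site held. Members with an E-box and GATA match had low median log2 ratios, at -0.44, -0.52, -0.86, -1.04 and -1.18, over 40, 69, 62, 52 and 12 sites. Members with any GATA match had -0.31, -0.48, -0.65, -0.94 and -1.15. The few members with an NFE2 match had -0.28, -0.57, -0.57, -1.03 and -1.05, over 11, 17, 9, 13 and 5 sites. KLF sites had -0.19, -0.47, -0.54, -1.02 and -0.91, and SP sites -0.25, -0.35, -0.54, -0.75 and -1.15. Members with a CTCF match had -0.22, -0.40, -0.44, -0.56 and -0.72, near the values of all members. Members at tRNA genes had less negative ratios, -0.12, -0.14, -0.36 and -0.34 in groups 2 to 5, over 9, 19, 68 and 53 sites. This was not particular to tRNA sites. Members with 10 or more CpG dinucleotides in the window, some of them at tRNA genes, had -0.08, -0.22, -0.27, -0.55 and -0.92. These were less negative than for all members in groups 1 to 4 and more negative in group 5. Each ratio rests on a single pair of libraries, so it was not tested, nor was any cause.

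**Figure D1:**
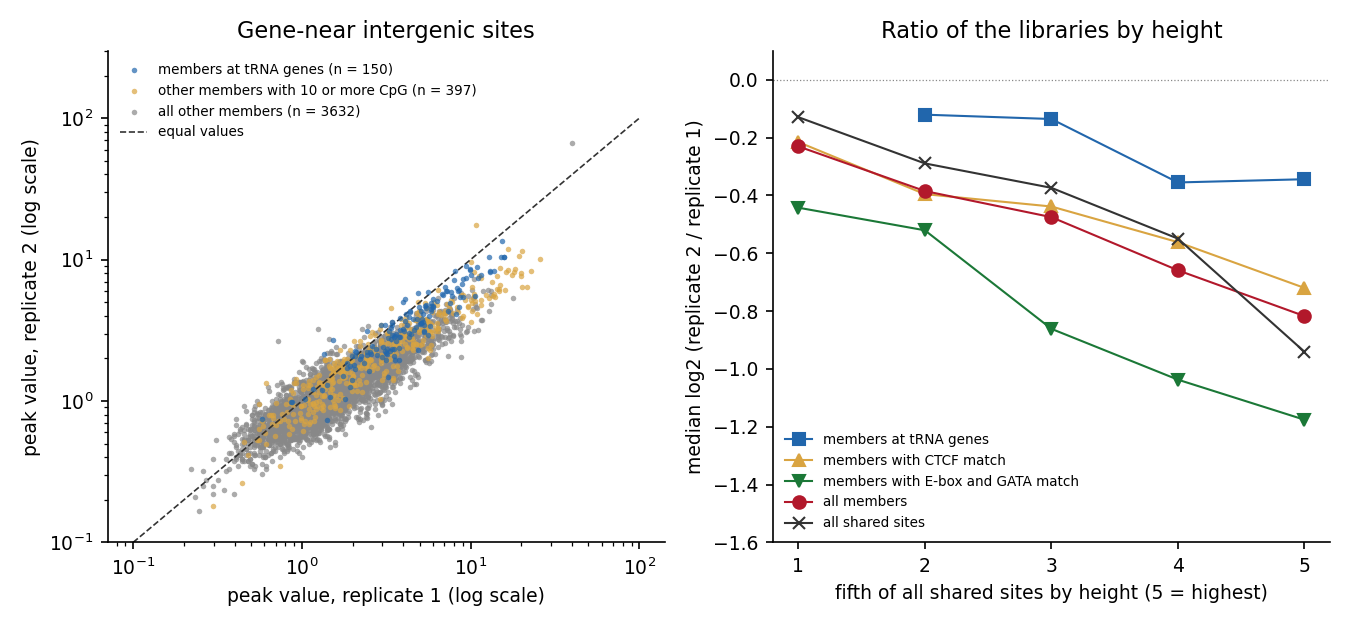
Left: peak value of each of the 4179 members in replicate 1 (x axis, log scale) and replicate 2 (y axis, log scale), with the 150 sites at tRNA genes in blue and 397 other sites with 10 or more CpG dinucleotides in yellow. Right: median log2 ratio of replicate 2 to replicate 1 (y axis) by height group of all shared sites (x axis), where, of the 5 classes drawn, sites with an E-box and GATA match lie lowest in each group and sites at tRNA genes lie highest in groups 2 to 5; group 1 is not drawn for tRNA genes, where it held 1 site.

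Most members carried footprints. A footprint overlapped 92.4% of members in replicate 1 and 82.3% in replicate 2. In both libraries it did so at 3263 members, 78.1% (exact binomial 95% interval 76.8 to 79.3), against 61.4% of far intergenic, 72.2% of distal intronic and 75.7% of all shared sites. Members averaged 2.499 and 1.95 footprints per site in replicates 1 and 2. The members thus lay close to the share of all shared sites although their values were lower. Of the members, 54.4% were also in the shorter peak list of both libraries, against 44.5% of far intergenic, 47.0% of distal intronic and 68.3% of all shared sites.

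The density of sites fell with distance from genes. The median distance to the nearest protein-coding start was 12847 bases. Per megabase of intergenic sequence that met the rule, there were 18.6 members at 1000 to 2000 bases, then 12.7 up to 5000, 10.2 up to 10000, 9.56 up to 20000, 7.82 up to 30000, 6.59 up to 40000 and 4.67 up to 50000. All members together had 9.001 per megabase over 464.3 megabases, against 1.22 for far intergenic sites. Median values fell less, with 1.75 and 1.31 in replicates 1 and 2 at 1000 to 2000 bases and 1.23 and 0.929 at 40000 to 50000 bases. The nearest start lay downstream of 64.2% of members, so that they sat upstream of the gene. This share was 92.7% at 1000 to 2000 bases and 127 of 254 members at 40000 to 50000 bases. The rule itself removes sites just downstream of a start, since these lie in the gene body.

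The limits of the rule are fixed distances, and shared sites lay close to either side of each. The farthest member lay 49990 bases from Ddx3x, with 3.27 and 1.84, and the first site beyond the limit lay 50003 bases from Kdm7a, with 0.641 and 0.596. The nearest member lay 1001 bases from Fgf18, with 0.727 and 1.12, and the intergenic site just inside the excluded zone lay 999 bases from Fbrs, with 18.8 and 7.999.

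**Figure D2:**
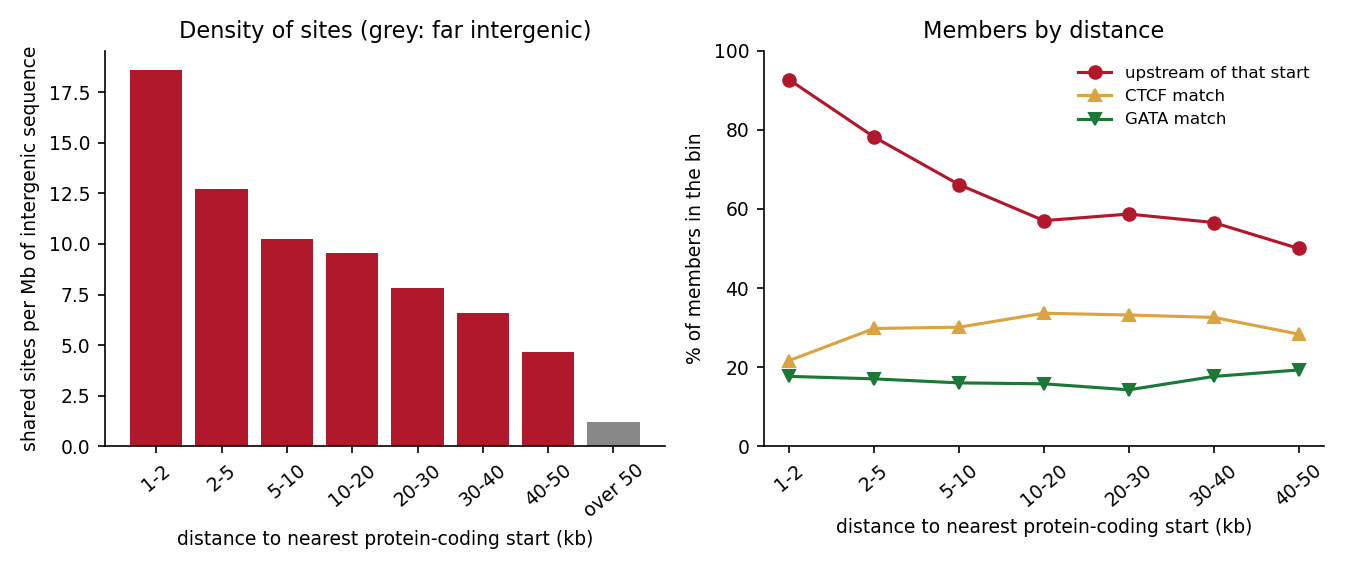
Left: shared sites per megabase of intergenic sequence (y axis) by distance to the nearest protein-coding start (x axis), members in red and far intergenic sites in grey, falling from 18.6 at 1 to 2 kb to 4.67 at 40 to 50 kb. Right: the percentage of members in each distance bin that lay upstream of that start, held a CTCF match or held a GATA match; the upstream share was 92.7% in the nearest bin and 127 of 254 in the farthest, while GATA stayed between 14.3% and 19.3%.

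CTCF matches were the most frequent of the 18 motifs searched from the start. They lay in the window of 1297 members, 31.04% (29.6 to 32.5), against 27.8% (25.2 to 30.5) of far intergenic, 25.6% (24.3 to 26.9) of distal intronic and 14.0% of all shared sites. Of 1324 CTCF matches in members, 88.9% lay in a footprint in replicate 1, 71.5% in replicate 2 and 69.1% in both. Footprints covered 20.5% and 13.0% of all window bases. This is a share of single bases, whereas a match counted when any of its bases lay in a footprint. Footprints over CTCF matches were wide, with medians of 26 and 18 bases in replicates 1 and 2, against 10 and 9 bases for all footprints of members. Sites with a CTCF match had medians of 1.48 and 1.12, close to those of all members. The share with a match was 21.7% at 1000 to 2000 bases and between 28.3% and 33.6% in the farther bins.

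GATA matches (AGATAA or TGATAA) were less frequent in members than in introns. They lay in 682 members, 16.3% (15.2 to 17.5), against 20.5% (18.2 to 23.0) of far intergenic, 26.9% (25.6 to 28.2) of distal intronic and 11.1% of all shared sites. The E-box and GATA match showed the same order, with 5.62% of members (4.94 to 6.37), against 7.39% (5.93 to 9.08) of far intergenic and 10.7% (9.78 to 11.6) of distal intronic sites. These intervals cover counting error over sites that share their libraries, and no test was made of the differences. Members with a GATA match had medians of 1.70 and 1.12, so they were higher than members overall in replicate 1 and not in replicate 2. Of 817 GATA matches 22.0% and 11.3% lay in a footprint in replicates 1 and 2, and 5.14% in both. Footprints covered 20.5% and 13.0% of all window bases. The GATA share was thus slightly above that in replicate 1 and below it in replicate 2. For the 248 E-box and GATA matches the shares in a footprint were 41.5% and 20.97%, and 13.7% in both. A match counted when any of its bases lay in a footprint, so longer matches count more easily. These shares were not set against those of random stretches of the same length. KLF matches lay in 9.40% of members, against 7.75% of far intergenic, 12.6% of distal intronic and 10.8% of all shared sites. NFE2 matches were rare, at 1.32% of members, against 1.78% of far intergenic, 1.94% of distal intronic and 0.826% of all shared sites. Of the 69 NFE2 matches, 66.7% and 52.2% lay in a footprint in replicates 1 and 2.

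Motifs of promoters were less frequent in members than near starts. SP matches (GGGGCGG) lay in 6.37% of members, against 28.6% of sites near starts, and ETS matches in 2.30% against 9.59%. The motif of NRF1, a factor of housekeeping promoters, lay in 8 members. It reads the same on both strands, so each stretch was counted once per strand. Of the 18 matches counted this way, 18 lay in a footprint in replicate 1 and 16 in replicate 2. Of the motifs of liver cell factors, HNF4 lay in 0.191% of members against 0.115% of all shared sites, FOXA in 1.53% against 1.23% and CEBP in 5.29% against 4.02%, and HNF1 had no match in members. Far intergenic and distal intronic sites had 0.267% and 0.134% with HNF4, 1.69% and 1.61% with FOXA, and 6.95% and 4.98% with CEBP. Of the motifs searched as not typical of liver, the octamer lay in 0.503% of members against 0.609% of all shared sites, and MEF2 had no match in members. A match is a description of letters and not of binding.

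**Figure D3:**
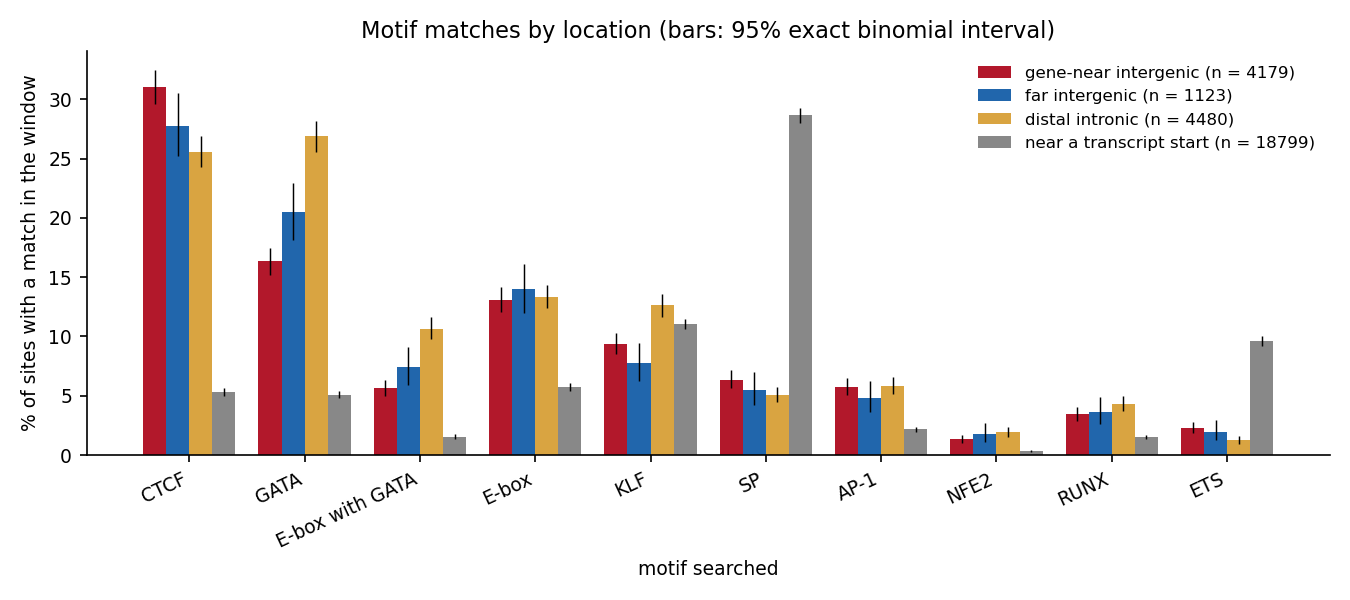
Percentage of sites with a match to each motif in the 150-base window (y axis), for members in red, far intergenic sites in blue, distal intronic sites in yellow and sites near a transcript start in grey, with exact binomial 95% intervals as bars. CTCF was highest in members at 31.04%, GATA was highest in distal intronic sites at 26.9%, and SP was highest near starts at 28.6%.

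A subset of members covered tRNA genes, which RefSeq annotates and GENCODE vM21 gene bodies do not. This was noticed in the data, and the B box motif was added afterwards. A RefSeq tRNA gene overlapped 150 members, 3.59% (3.05 to 4.199), against 0.534% of far intergenic, 0.112% of distal intronic and 0.750% of all shared sites. Of 403 tRNA genes, 241 had a peak in replicate 1, 238 in replicate 2 and 230 (57.1%) at a shared site, of which 151 lay at members. The tRNA sites were among the highest members, with medians of 4.25 and 3.41 in replicates 1 and 2, against 1.503 and 1.14 for members without a tRNA gene. A footprint in both libraries was present at 98.7% of the tRNA sites. The central 31 bases occurred more than once in the genome at 35.3% of the tRNA sites, against 2.88% of members without a tRNA gene. The 97 tRNA sites with a unique centre had medians of 4.29 and 3.45. The highest was a tRNA-Arg gene at chr11:107012681-107012940 with 15.9 and 10.4, followed by a tRNA-Asn gene at chr5:149228981-149229240 with 15.3 and 13.6. The nearest protein-coding gene to this tRNA-Asn site was Alox5ap, a gene of leukotriene synthesis without a promoter peak in both libraries.

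Footprints at these 151 tRNA genes fell at fixed places along the gene. Counting the first base of the gene as 0, 71.5% and 62.9% of genes were in a footprint at position -20 in replicates 1 and 2, and 84.8% and 72.2% at position 60. In between, at position 20, the shares were 1.32% and 1.99%. At position -70 they were 1.99% and 1.32%, and a lower rise to 29.1% and 28.5% stood at position -100. The stretch from -60 to -1 held a footprint at 91.4% and 86.8% of genes, and the stretch from 0 to 71 at 97.4% and 95.4%. The stretch that followed directly downstream, as long as the upstream one, also held a footprint at 70.2% and 69.5% of genes. Holding any footprint was therefore common in the downstream flank too, but footprints covered only 14.1% and 11.0% of its bases. Upstream they covered 47.0% and 42.9%. At position 72, the last base of a gene of the median length of 73 bases, 55.0% and 47.0% of genes were in a footprint. At position 88 these shares were 6.62% and 5.96%. Part of the downstream count thus comes from footprints at the end of the gene. Of 82 B box matches in members, 92.7% and 87.8% lay in a footprint, with median footprint widths of 35 and 24 bases. Both libraries thus had their maxima just before the gene and in its later portion, where the B box lies.

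**Figure D4:**
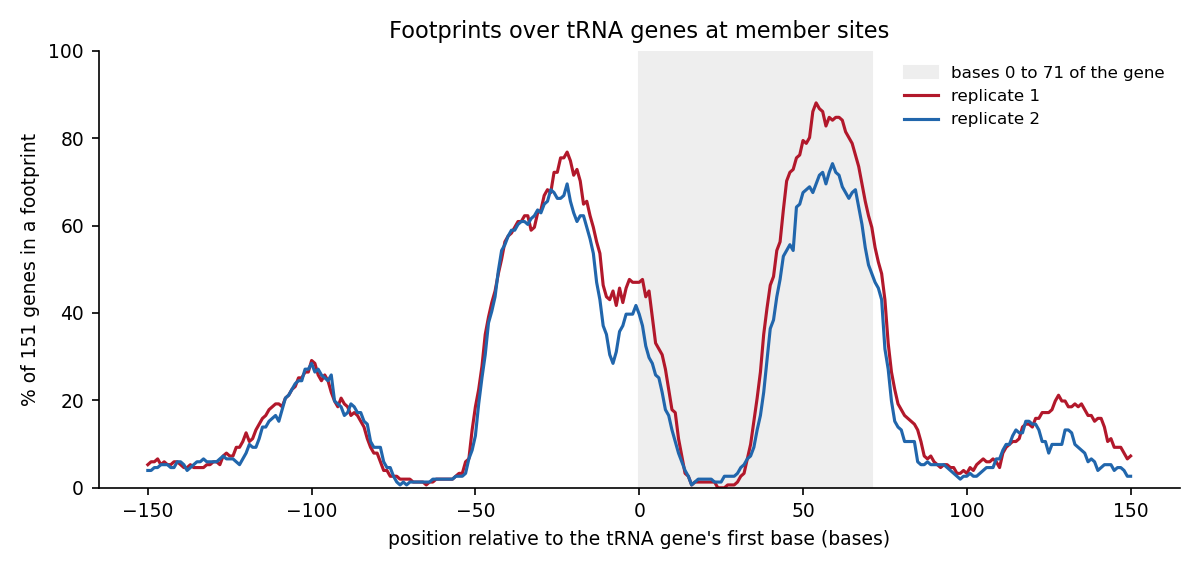
Percentage of the 151 tRNA genes at member sites whose base lay in a footprint (y axis), by position along the gene with its first base at 0 (x axis), for replicate 1 in red and replicate 2 in blue; the grey band spans positions 0 to 71. Both libraries have maxima near position -20 and near position 60 and almost no footprints near position 20.

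Every listed tRNA type had members, but in uneven numbers. Of 25 tRNA-Leu genes 16 lay at members, as did 13 of 24 tRNA-Arg genes, 12 of 16 tRNA-Pro genes and 10 of 22 tRNA-Ser genes. Of 57 tRNA-Cys genes only 4 did, and only 6 were at any shared site. Repetition of the sequence moved with openness, and its part in these counts was not tested. The 31 bases at positions -60 to -30 were unique in the genome for 339 tRNA genes, of which 228 (67.3%) were at a shared site, and repeated for 64, of which 2 (3.12%) were. Among tRNA-Cys genes 6 of 28 with a unique flank were at a shared site, and 0 of 29 with a repeated flank, which allows no statement on their chromatin. Whether the authors kept reads of repeated sequence is not stated. By chromosome, 58 of the 150 tRNA sites lay on chromosome 13 and 29 on chromosome 11.

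Members with many CpG dinucleotides, the hallmark of many promoters, were higher than the rest. Such sites were a minority, with 10 or more CpG in the window of 10.6% of members, against 8.01% of far intergenic, 4.04% of distal intronic and 44.0% of all shared sites. Leaving out tRNA sites, 397 members were CpG-rich in this sense, with medians of 2.49 and 1.97 in replicates 1 and 2, against 1.43 and 1.08 for the 3632 members with fewer. A footprint in both libraries was present at 84.6% of the CpG-rich and 76.5% of the other members. RefSeq genes of any kind overlapped 876 members (20.96%), near the 20.04% of far intergenic sites. The share was 96.5% of distal intronic and 79.2% of all shared sites. Among the members, long non-coding RNA genes were overlapped at 541 and protein-coding genes at 203. So some members lie in transcripts that only RefSeq holds.

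Of the 10 highest members by mean rank, 7 were CpG-rich without a tRNA gene and 2 covered tRNA genes. The highest lay at chr6:49236421-49236620, 21464 bases upstream of Igf2bp3, a gene for an RNA-binding protein of fetal tissues. It had 40.05 in replicate 1 and 67.0 in replicate 2, a log2 ratio of 0.74 where most members were lower in replicate 2. Its central 31 bases occur 2 times in the genome, and the part of this in its value was not tested. No word of 31 bases of any member window occurred in the mitochondrial genome, and 3 members shared such words with annotated ribosomal RNA genes. The next was a site 6297 bases upstream of Trappc9, which encodes a subunit of a vesicle tethering complex, with 25.6 and 10.2 and an SP match in a footprint of both libraries. A site 14429 bases upstream of the zinc finger gene Zfp395 had 23.0 and 8.32. A site 16377 bases from Zfp239, another zinc finger gene, had 20.2 and 11.5. The site 38946 bases upstream of Ptma, the gene of prothymosin alpha, had 19.5 and 10.6 and held 22 CpG. A site near Ctdsp1, the gene of a small phosphatase of RNA polymerase II, had 19.9 and 8.07. A site 9911 bases upstream of the amino acid transporter gene Slc38a2 had 18.4 and 8.62. The site 33937 bases upstream of the forkhead factor gene Foxk1 had 16.6 and 11.9 and an NRF1 match in a footprint of both libraries. Apart from the Igf2bp3 site, the other 9 were lower in replicate 2.

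Members were spread over many genes. Of 21938 protein-coding genes, 2891 (13.2%) were nearest to at least 1 member, of which 2114 had 1 member, 510 had 2 and 267 had 3 or more. The nearest gene had a promoter peak in both libraries for 67.2% of members, against 69.5% of far intergenic, 76.9% of distal intronic and 88.1% of all shared sites. Nearness does not show that a site acts on that gene. Members with such an open promoter had medians of 1.63 and 1.21, and the others 1.39 and 1.07.

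Most members stood alone. Joined over gaps of at most 10000 bases, the members formed 3147 clusters, of which 2491 held 1 site and 195 held 3 or more, with 766 sites in all. Some neighbours are pieces of 1 open region, since 47 members overlapped another. Each of the 3 largest clusters held 12 sites. The cluster at chr13:21907021-21937300, nearest to Zfp184, had tRNA genes at 11 of its 12 sites. The cluster at chr4:154903001-154915000, near Fam213b and Tnfrsf14, had none. The genes nearest to the most members were Abt1 with 17 sites, 11 of them at tRNA genes, and Zfp184 with 12. Slc4a1 followed with 11. Dhx37, Fam213b and Trim27 had 10 each, of which 5, 0 and 7 were at tRNA genes. Gm21860 on chromosome Y, Olfr1423 and Ptma had 9 each. By chromosome, density ran to 3.40 members per megabase on chromosome 11. On chromosome X it was 0.620, with medians of 0.881 and 0.665.

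Slc4a1, which encodes the anion exchanger band 3 of the red cell membrane, had 11 members and no tRNA gene among them. The highest lay 9058 bases upstream, at chr11:102375261-102375500, with 5.14 in replicate 1 (95% Poisson interval 4.66 to 5.66) and 2.23 in replicate 2 (1.90 to 2.60). It overlapped a RefSeq gene and lay 1520 bases from the nearest transcript start of any gene type. The next, 6818 bases upstream, had 3.61 and 1.83 and an SP match in a footprint of both libraries, and lay 3780 bases from such a start. These 2 sites stood above the other 9, which ran from 0.579 to 1.76 in replicate 1 and from 0.527 to 1.11 in replicate 2. The sites 7966 and 8278 bases upstream shared 1 peak of replicate 2. The highest site held an E-box and GATA match outside any footprint. On the downstream side 3 sites lay 11868 to 13328 bases from their nearest Slc4a1 start, with 1.43 to 1.76 in replicate 1 and 0.929 to 1.11 in replicate 2. That start is another one than the start nearest to the upstream sites.

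**Figure D5:**
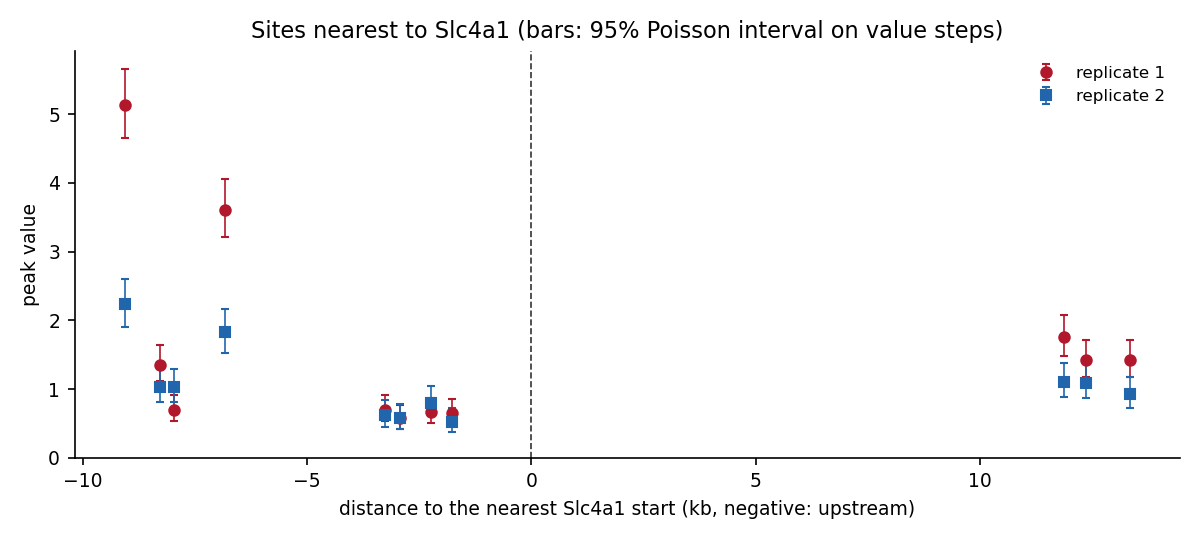
Peak value (y axis, from 0) of the 11 members nearest to Slc4a1 in replicate 1 (red) and replicate 2 (blue), with 95% Poisson intervals as bars. The x axis is the distance to the nearest Slc4a1 start in kb (negative upstream, dashed line at distance 0). That start differs between the upstream and the downstream sites, so the sides do not share an origin. The sites at 9058 and 6818 bases upstream stand above the other 9 in both libraries.

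On the lists of red cell genes, a larger share of genes was nearest to a member than among all protein-coding genes, a difference that was not tested. Among erythroid regulators 8 of 22 genes were nearest to a member, with 12 sites, against 13.2% of all protein-coding genes. The sites had medians of 2.61 and 1.67. Gfi1b, a repressor needed for red cell and platelet formation, had its highest member 12925 bases downstream at chr2:28602241-28602480, with 8.58 and 3.59. Foxo3, a factor of erythroid maturation, had 7.29 and 4.89 at 1306 bases upstream, in a window with 18 CpG. Tal1 had a member 8386 bases upstream, at chr4:115047821-115048040, with 6.68 and 4.08 and an E-box match (CAGATG) in a footprint of both libraries. The cell cycle gene E2f2 had 4.24 and 3.45 with a CTCF match in a footprint of both libraries. Myb, a regulator of blood progenitors, had 4.81 and 2.23 at 35717 bases upstream, with a GATA match in a footprint of 1 library. Bach1, the heme-sensing repressor gene, had 2.19 and 1.59. All 6 were higher in replicate 1, as were 84.9% of all members.

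Among erythroid membrane and heme genes 9 of 34 were nearest to a member, with 22 sites, of which 11 belonged to Slc4a1. Slc2a1, the glucose transporter gene, had 7.05 and 4.14 at 2671 bases upstream. Epb41, a gene of the membrane skeleton, had 6.14 and 2.16 at 2220 bases upstream, with footprints in replicate 1 only. Fech, the gene of the last enzyme of heme synthesis, had 5.08 and 2.37. Cd24a, which encodes a surface protein of immature blood cells, had 2.67 and 2.44. Slc25a37, the gene of the mitochondrial iron importer, had 1.95 and 1.62 at 43147 bases from its start and no promoter peak in both libraries. The Cd24a and Slc25a37 sites held CTCF matches in a footprint of both libraries.

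The globin lists held 3 members in all. In the beta-globin list 1 of 5 genes was nearest to a member. This site, 7825 bases upstream of the embryonic gene Hbb-y at chr7:103861041-103861200, had a value of 8.75 in replicate 1 (95% Poisson interval 8.12 to 9.42) and of 2.05 in replicate 2 (1.73 to 2.41). It held an NFE2 match in a footprint of both libraries, and its log2 ratio of -2.09 was the lowest among the upper 50% of members by height. Since the reach of the LCR deletion and the genotype of each embryo are unknown here, a difference in genotype cannot be told apart from other differences between the libraries at this site. In the alpha-globin list 2 of 5 genes had members. The member near Hba-a1 had 6.46 and 2.95, but its central 31 bases occur 1434 times in the genome. The member near Hbq1a had 4.18 and 2.90, with a CTCF match in a footprint of both libraries.

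The share of genes nearest to a member varied among the other blood lists, from 10% of megakaryocyte to 37.5% of mast cell genes, again against 13.2% of all protein-coding genes. Among blood stem and progenitor genes 3 of 15 had members, with Meis1 highest at 1.98 and 1.34. The megakaryocyte list had 1 of 10, Gp1bb, with 2.28 and 1.95, and the lymphoid list 2 of 12, Tcf7 and Bcl11b, with at most 1.34 and 1.19. Among macrophage and myeloid genes 2 of 16 had members. The member near Cebpe, a granulocyte factor gene, had 8.64 and 2.97, although Cebpe had no promoter peak in both libraries. This site held the combined E-box and GATA match, and a GATA match, in a footprint of both libraries. Its separate E-box match (CAGATG) lay outside any footprint. The member near Adgre1, the gene of the macrophage marker F4/80, had 3.04 and 2.69. Mast cell genes had 3 of 8, all at or below 1.17 in replicate 1 and 0.887 in replicate 2.

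Genes of other liver cells were nearest to members at shares from 7.14% to 18.2% per list, on either side of the 13.2% of all protein-coding genes. Hepatoblast genes had 2 of 20, the imprinted gene Dlk1 with 4.10 and 2.54 and Foxa2 with 0.481 and 0.374. Mature hepatocyte genes had 1 of 14, Uox, with 1.23 and 0.970. Endothelial genes had 1 of 10, Pecam1, with 1.61 and 1.14, and stellate genes 2 of 11, of which Reln had 4.90 and 1.47. Neuronal genes had 2 of 12 and muscle genes 0 of 10. Housekeeping genes had 6 of 12, more than any other list by share. Actb, the actin gene, had 8.90 and 3.44 at 13987 bases upstream. Of the cell growth genes 2 of 10 had members. The member near the cell cycle inhibitor gene Cdkn1b had 1.92 and 2.30 and was higher in replicate 2, whose peak was also paired with another site. The shares of these short lists are counts of a few genes and were not tested.

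Among the upper 50% of members by height, the ratio between the libraries ran from the Hbb-y site up to a site 18383 bases from Adnp2, a zinc finger gene, with 0.727 in replicate 1 and 2.68 in replicate 2 (log2 ratio 1.88). The next highest ratios were 1.37 at a site near Tex44, with 1.24 and 3.22, and 0.94 at a site near Commd7, with 0.998 and 1.91. The Adnp2 and Tex44 sites overlapped their replicate 2 peak by only 34 and 33 bases, and that peak was also paired with another site, so these ratios set partly different stretches against each other. In all, 143 members (3.42%) shared their replicate 2 peak with another site. The lowest after Hbb-y were -1.88 near Trappc8, with 3.12 and 0.846, and -1.84 near Ppp1r21, with 2.83 and 0.790. Of all members, 630 were higher in replicate 2.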

How the data were processed

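For each DNase-seq library the authors deposited peak lists of 2 lengths, footprints and false discovery rates, made from that library alone on mm10 (GRCm38), per the labels and file headers. No source used here names the peak caller or its threshold. Peak values are the authors' deposited cleavage signal. The deposited false discovery rate is an adjusted p-value (q-value type), listed only under 0.05, and was used only for sites seen in 1 library. The deposited footprint score is a constant, so only positions were used. No aligned depth is given.

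Chromosomes 1 to 19, X and Y were used. Sites were classed by GENCODE vM21, with any start of a protein-coding gene counted as a protein-coding start. tRNA genes and sequences came from RefSeq GRCm38.p6. Motifs were searched on both strands of the 150-base window. A match was counted as lying in a footprint when they shared at least 1 base. A promoter was open where a peak lay at most 1000 bases from any start of its gene. Members, lists and motifs were chosen with earlier results of these data known. Of 227 list genes 226 matched. Named were the 10 highest members, the highest member of up to 6 genes per list, the genes with most members, the sites at the distance limits and the extreme ratios. Of the items this rule covers, 1 is not reported here. All shares are descriptions, with exact binomial intervals. Interval and motif code was tested on simulated data. Python 3.11.15, numpy 2.4.6, pandas 2.3.3, scipy 1.17.1 and matplotlib 3.10.9 were used.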

Additional observations from a re-analysis of the deposited data

How the results depend on the processing

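Of 73 values under alternatives, 45 stayed within the spread of the reported value or within 1.5 times its count, and 28 did not. Only the log2 ratio could change sign, and it did so under no alternative. With the shorter lists there were 2280 sites with a mean library median of 1.91, footprints in both libraries at 91.8%, CTCF at 32.6%, a log2 ratio of -0.47 and, by construction, 100% in the shorter lists. With peaks at or above the library median there were 1825 sites, with 2.31, 96.1% with footprints, 87.1% in the shorter lists, 70.7% with an open nearest promoter and a ratio of -0.51. With overlap of at least 50% of both peaks, footprints were at 82.9%, shorter-list sites at 60.7%, GATA at 14.8% and CTCF at 34.4%. At most 20000 bases from a start, footprints were at 79.9% and the ratio was -0.45. Searching the whole peak gave GATA at 20.3%. Leaving out each replicate gave 4922 sites without replicate 1 and 7183 without replicate 2, medians of 1.04 to 1.08, footprints at 75.4% to 81.6%, shorter-list sites at 51.6% to 55.7%, GATA at 13.6% to 16.6%, CTCF at 26.1% to 26.6% and open promoters at 66.9% to 70.7%. Values of sites over 2500 bases from starts and, as an alternative chosen after seeing the data, of the 4029 sites without tRNA genes stayed within the spread. Leaving out sites at any RefSeq gene, also chosen afterwards, gave 3303 sites, and only this count was run. No paired analysis was possible because there is 1 group.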

Other observations

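Sites that met the same location rule but were called in 1 library were lower than the members and held fewer CTCF matches. In replicate 1, 3004 of 7183 such sites (41.8%) had no peak in replicate 2, with a median value of 0.715, against 1.54 for the members. In replicate 2, 780 of 4922 (15.8%) had no peak in replicate 1, with a median of 0.596, against 1.15 for the members. Over all peaks these shares were 35.6% and 17.7%. A listed false discovery rate in the other library was present at 9.92% of the sites of replicate 1 alone and at 16.9% of the sites of replicate 2 alone.

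CTCF matches lay in 19.2% of the sites of replicate 1 alone and 7.82% of those of replicate 2 alone, against 31.04% of the members. GATA matches lay in 16.9% and 11.3%, against 16.3% of the members. The E-box and GATA match was found in 4.89% of the sites of replicate 1 alone and 2.31% of those of replicate 2 alone, against 5.62% of the members. These are counts in single libraries, and no cause was tested.

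In 5 members a B box match was present with no RefSeq tRNA gene at the site.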
